A study of Saccharomyces cerevisiae with 21 samples.

Results

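The nuclear genes for the subunits of mitochondrial respiratory complexes II, III and IV and of the ATP synthase were followed across biofilms of 7 Saccharomyces cerevisiae strains. They were taken by systematic name: 4 genes of complex II, 9 of complex III, 8 of complex IV and 16 of the ATP synthase, the latter including its inhibitor proteins INH1 and STF1. These 37 genes were 37 of the 7126 features in each count table, and all of them were among the 5786 genes with enough counts to be tested. In the succinate dehydrogenase (complex II) they were SDH1 (YKL148C), SDH2 (YLL041C), SDH3 (YKL141W) and SDH4 (YDR178W). In the cytochrome bc complex (complex III) they were COR1 (YBL045C), QCR2 (YPR191W), QCR6 (YFR033C), QCR7 (YDR529C), QCR8 (YJL166W), QCR9 (YGR183C), QCR10 (YHR001W-A), RIP1 (YEL024W) and CYT1 (YOR065W). In cytochrome c oxidase (complex IV) they were COX4 (YGL187C), COX6 (YHR051W), COX7 (YMR256C), COX8 (YLR395C), COX9 (YDL067C), COX12 (YLR038C), COX13 (YGL191W) and COX26 (YDR119W-A). In the ATP synthase they were ATP1 (YBL099W), ATP2 (YJR121W), ATP3 (YBR039W), ATP4 (YPL078C), ATP5 (YDR298C), ATP7 (YKL016C), ATP14 (YLR295C), ATP15 (YPL271W), ATP16 (YDL004W), ATP17 (YDR377W), ATP18 (YML081C-A), ATP19 (YOL077W-A), ATP20 (YPR020W), TIM11 (YDR322C-A), INH1 (YDL181W) and STF1 (YDL130W-A).

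All strains were of the Sigma1278B background, a laboratory yeast that can form filaments and mats. Polyadenylated RNA was sequenced from spots harvested after 24 h on rich medium with galactose and 2% agar, with 3 libraries per strain and 21 in all. The wild type was accompanied by 6 mutants. The labels give a hyperfilamentous biofilm for dig1 and a hypofilamentous one for ras2, rim101-531, rtg3, spt8 and ste12. STE12 encodes the transcription factor of the filamentation and mating kinase pathways and DIG1 a repressor of it. RTG3 encodes an activator that carries mitochondrial signals to the nucleus, RAS2 the GTPase that switches on protein kinase A through cyclic AMP, RIM101 a repressor used at alkaline pH, and SPT8 the subunit through which SAGA meets the TATA-binding protein. The labels call every mutant only by its gene or allele and do not say how it was made, nor whether the 3 libraries of a strain came from separate cultures, so the spread behind each p-value may be technical only.

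Complex II, complex III and complex IV pass electrons from succinate and other donors to oxygen, and complexes III and IV pump protons out of the mitochondrial matrix as they do so. The ATP synthase lets the protons flow back through its membrane part, Fo, and uses that flow to turn the catalytic head, F1, which makes ATP. Budding yeast has no proton-pumping complex I. Its nuclear respiratory genes are repressed by glucose and are transcribed more strongly on carbon sources that are respired, in large part through the Hap complex, which binds CCAAT sequences in their promoters and whose activating subunit, Hap4, is itself made in larger amounts without glucose.

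Of the 6 motifs searched, CCAAT was in the most promoters, read on both strands in the window from 250 bases before to 50 bases after the start codon in the RefSeq R64 genome. It was in 32 of the 37 windows (86.5%), against 43.3% of the 6007 nuclear windows of that kind. The longer Hap motif ACCAATNA, which contains CCAAT, was in 14 of 37 (37.8%), against 5.74% of all windows. It was in 0 of 4 windows of complex II, 2 of 9 of complex III, 4 of 8 of complex IV and 8 of 16 of the ATP synthase, with its first base between positions -248 and -134 from the start codon. The Ste12 motif TGAAACA was in none of the 37 windows, against 7.49% of all, and the Rtg motif GGTCAC was in 5 (13.5%), against 5.08%. The Msn stress motif AGGGG was in 18 (48.6%), against 21.6% of all, and the longer Hap1 motif was in 1, that of QCR6, against 0.133%. The windows of COR1, CYT1, COX4, ATP1 and STF1 held no CCAAT, and that of COX26 held it only inside the coding sequence. The matches are descriptions of a reference of another strain background and were not read in Sigma1278B.

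The stretches around CCAAT are shown for 8 genes whose RNA levels carry the comparisons below or that had a pair of matches, with CCAAT or its reverse complement ATTGG in capitals. They lie at chrIV:817700-817741 (SDH4, plus strand), chrIV:1496705-1496749 (QCR7, minus strand), chrX:106203-106247 (QCR8, plus strand), chrVIII:209470-209514 (COX6, plus strand), chrXII:225353-225397 (COX12, minus strand), chrVII:144576-144620 (COX13, plus strand), chrXVI:408909-408983 (ATP4, minus strand) and chrXV:185284-185328 (ATP19, plus strand) in R64.
SDH4: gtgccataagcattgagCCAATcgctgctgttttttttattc
QCR7: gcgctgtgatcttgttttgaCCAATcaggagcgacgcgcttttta
QCR8: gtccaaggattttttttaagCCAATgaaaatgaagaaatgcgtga
COX6: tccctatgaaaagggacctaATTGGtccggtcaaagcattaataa
COX12: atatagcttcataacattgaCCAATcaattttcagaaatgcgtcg
COX13: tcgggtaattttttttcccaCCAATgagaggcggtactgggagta
ATP4: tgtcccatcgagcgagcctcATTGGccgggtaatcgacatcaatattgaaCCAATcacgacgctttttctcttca
ATP19: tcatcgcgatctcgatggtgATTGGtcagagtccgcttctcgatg

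Library depth ran from 2388813 to 3987529 counts on features. The genes naming the spt8, ras2 and rtg3 mutants had 0 counts over their 3 libraries and 195, 954 and 319 counts over the wild-type libraries, and DIG1 had 1 count against 549. STE12 kept 187 counts in ste12 against 534 in the wild type, and RIM101 1354 in rim101-531 against 1647, so counts checked the first of these labels only in part and the second not at all. The subunits of the respiratory chain moved together from library to library within several strains. Replicate 2 was the lowest of the 3 libraries for 35 of the 37 genes in dig1, 33 in spt8, 33 in rim101-531 and 31 in ras2, and it was the highest for 33 of 37 in rtg3. The summed level of the genes was 1.42 times as high in replicate 1 as in replicate 2 of dig1, 1.38 times in spt8, 1.36 times in rim101-531, 1.29 times in ras2 and 0.848 times in rtg3, against 0.989 times in the wild type. The median coefficient of variation of a gene over 3 libraries was 5.42% in the wild type and 15.9% in spt8. A single library therefore moved many calls at once, and counts that move by more than 1.5 times without a library are given with that library.

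In the wild type, levels per coding length (RPKM) spanned 12.9-fold over the 37 genes. ATP2, the catalytic beta subunit of F1, stood highest at 2831 ± 167 RPKM (SD, n = 3), followed by SDH4, a membrane anchor of complex II, at 2637 ± 100 RPKM and COX13, a peripheral subunit of complex IV, at 2286 ± 78.2 RPKM. The lowest were ATP18, a small membrane subunit of Fo, at 255 ± 0.756 RPKM and the inhibitor STF1 at 219 ± 14.8 RPKM. The median over genes was 1885 RPKM for complex II, 696 for complex III, 850 for complex IV and 716 for the ATP synthase. Partners of fixed protein stoichiometry had unequal values: SDH1, the flavoprotein of complex II, stood at 756 ± 107 RPKM and SDH2, its iron-sulfur partner, at 1715 ± 206 RPKM. Alignment records that were not unique were given to no feature. A gene with a close paralog can thus be counted too low, which was not tested. The subunits encoded in mitochondrial DNA could not be followed in these libraries of polyadenylated RNA: COX3, COX1, COX2 and COB had 12, 6, 5 and 2 counts over all 21 libraries, and ATP6, ATP8 and OLI1 had 0.

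Summed over the 37 genes, the level was highest in the wild type and lowest in spt8. In CPM, that is counts scaled to a common effective library size, the sum was 25700 ± 172 in the wild type, 23010 ± 3541 in rim101-531, 20830 ± 864 in ste12, 19030 ± 3307 in dig1, 18040 ± 1660 in rtg3, 16490 ± 2106 in ras2 and 13850 ± 2198 in spt8 (mean ± SD, n = 3 each). Each pair of neighbours in this order overlapped in range, whereas spt8, ras2, rtg3, dig1 and ste12 did not overlap the wild type. The order of the mutants and their distance from the wild type depend on the scaling factors, which were 1.116 to 1.163 in rtg3 and 0.900 to 0.911 in ste12. They were 1.12 to 1.159 in spt8 and 0.961 to 0.968 in the wild type. As an unscaled share of feature counts, the 37 genes made up 1.941, 2.225 and 2.006% in rtg3 and 1.983, 1.81 and 1.857% in ste12. The share was 1.839, 1.289 and 1.613% in spt8, near the 1.891, 1.474 and 1.668% in ras2. In the wild type it was 2.48, 2.492 and 2.458%. The wild type had the highest group mean for 28 of the 37 genes and spt8 the lowest for 30. The exceptions at the top were SDH1, COR1, QCR2, RIP1 and CYT1, highest in rim101-531, QCR6, QCR8 and COX13, highest in ste12, and STF1, highest in rtg3, and none of these 9 differences from the wild type passed the test. The exceptions at the bottom were SDH1, SDH3 and COX9, lowest in rtg3, COX12, ATP1 and ATP18, lowest in ras2, and SDH2, lowest in ste12. In bulk RNA, fewer cells that express these genes and less of their RNA per cell cannot be told apart.

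**Figure D1:**
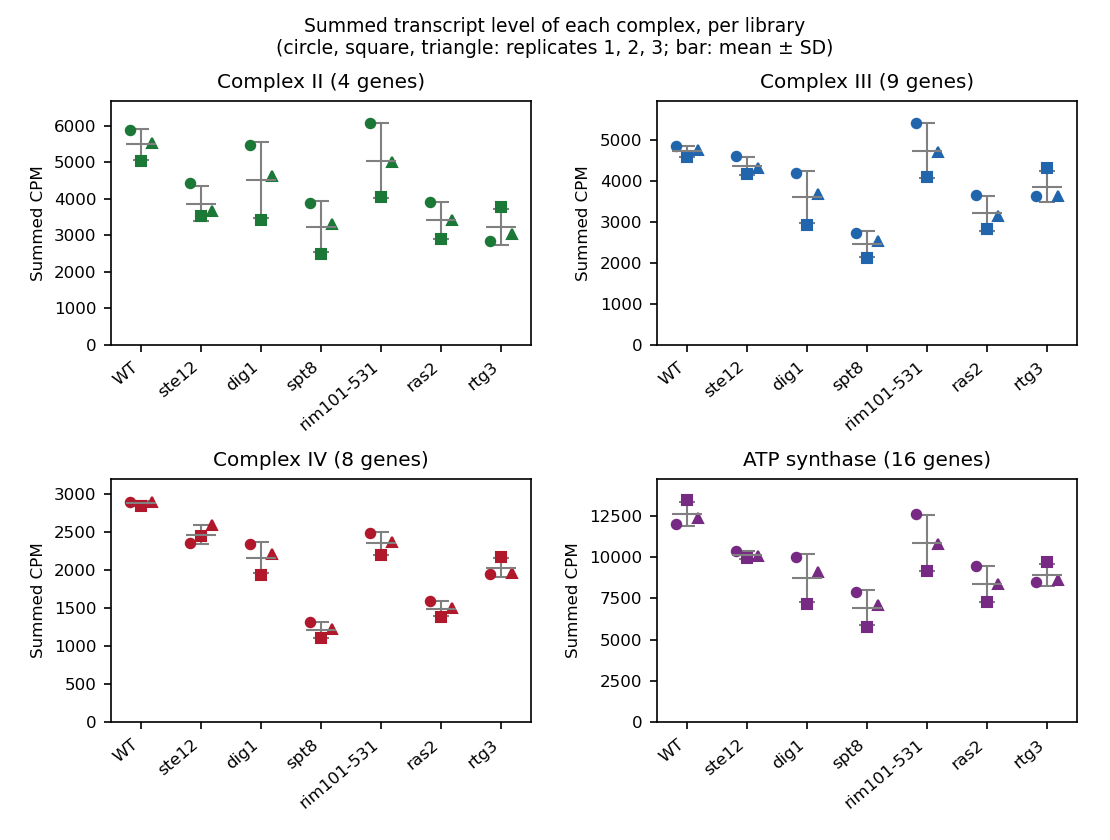
Summed CPM (linear axes from 0) of the genes of each complex in every library, by strain, with the mean ± SD over 3 libraries as grey bars. The complex IV sum was 2877 ± 34.4 in the wild type and 1217 ± 107 in spt8, and replicate 2 (squares) lies below replicate 1 in dig1, spt8, rim101-531 and ras2 and above it in rtg3.

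Levels differed among the 7 strains for 36 of the 37 genes by edgeR's quasi-likelihood F test with Benjamini-Hochberg adjustment over all tested genes, against 63.5% of all tested genes. The exception was SDH1 (adjusted p = 0.0643), whose group means ran from 981.5 CPM in rtg3 to 1611 in rim101-531. The smallest adjusted p of each complex belonged to COX13 (1.05e-09), QCR8 (2.14e-08), ATP19 (4.97e-06) and SDH4 (4.17e-05). The comparisons with the wild type below all share its 3 libraries, so falls in several mutants are not separate evidence. Log2 fold changes are given as the estimate ± its standard error, and "fell" or "rose" is used only for a gene with an adjusted p under 0.05.

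**Figure D2:**
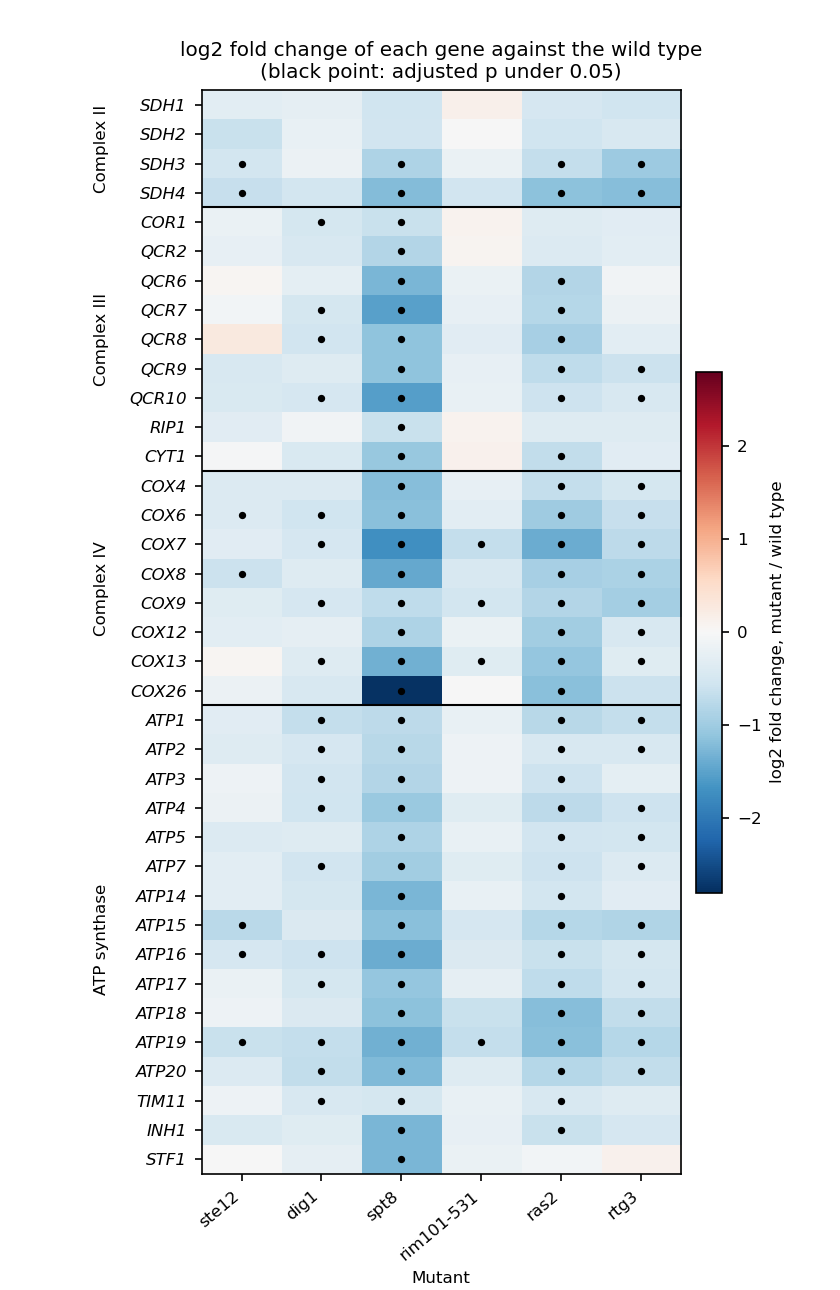
Log2 fold change of each of the 37 genes (rows, by complex) in each mutant (columns) against the wild type, from blue (lower) to red (higher), with a black point where the adjusted p is under 0.05. The spt8 column is the darkest, with COX26 at -2.78, and no gene has a point in red.

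Of the 6 mutants, spt8 had the most genes of the respiratory chain below the wild type: 35 of 37 genes were lower and 0 higher than in the wild type, against 14.4% of all tested genes lower and 11.1% higher. The median log2 fold change of the 37 genes was -1.12, beside 0.02 over all tested genes. All 9 genes of complex III, all 8 of complex IV and all 16 of the ATP synthase fell, with medians of -1.12, -1.27 and -1.11. In complex II only the membrane anchors SDH3 (-0.86) and SDH4 (-1.21 ± 0.18) fell; the catalytic subunits SDH1 and SDH2 had values of -0.55 ± 0.24 and -0.54 ± 0.21 (adjusted p = 0.0998 and 0.0580). In every gene that fell, no spt8 library reached the level of a wild-type library. Here and for the called genes named below, a lack of overlap is not separate evidence, since the test that called them used the same libraries. The share of all tested genes without overlap was not counted.

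The complex IV genes COX13 and COX6 and the complex III gene QCR7 had the smallest p-values of the 37 in spt8. COX13 (YGL191W, chromosome VII, 144808 to 145197), a peripheral subunit of cytochrome c oxidase, stood at 858, 899 and 917 CPM in the wild-type libraries and at 341, 366 and 348 in spt8. The spt8 libraries lay within a narrow band far below the wild type, unlike most of the 37 genes, for which replicate 2 was lower. The log2 fold change was -1.34 ± 0.09 (adjusted p = 6.09e-09). QCR7 (YDR529C, chromosome IV, 1496165 to 1496548), a small subunit of complex III that associates with cytochrome b, stood at 633, 636 and 623 CPM in the wild type and at 247, 189 and 228 in spt8, a log2 fold change of -1.51 ± 0.12 (adjusted p = 4.50e-08). COX6 (YHR051W, chromosome VIII, 209705 to 210151), a subunit of complex IV, stood at 723, 684 and 717 CPM in the wild type and at 337, 276 and 327 in spt8 (-1.18 ± 0.09, adjusted p = 1.11e-07). For both genes the groups were far apart, with the spt8 replicate 2 library lowest.

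The largest fall of any of the 37 genes was that of COX26 in spt8. COX26 (YDR119W-A, chromosome IV, 691014 to 691214) encodes a small peptide bound to complex IV in respiratory supercomplexes. It stood at 138, 69.9 and 101 CPM in the wild-type libraries and at 17.99, 9.65 and 17.1 in spt8, a 6.85-fold fall (log2 fold change -2.78 ± 0.29, adjusted p = 8.74e-07). The wild-type libraries themselves differed by nearly as much as a doubling, and all of them lay above every spt8 library. COX26 values in the other mutants reached down to 36.9 CPM in ras2, and ras2 was the only other mutant in which it fell (-1.18). Other genes with log2 fold changes beyond -1.3 in spt8 were COX7 (-1.72), COX8 (-1.42), QCR10 (-1.54), ATP16 (-1.39), the delta subunit of F1, and ATP19 (-1.35). Both inhibitor genes fell, INH1 and STF1 by 1.28 each on the log2 scale, and TIM11, a membrane subunit of Fo, had the smallest called change, at -0.50.

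**Figure D3:**
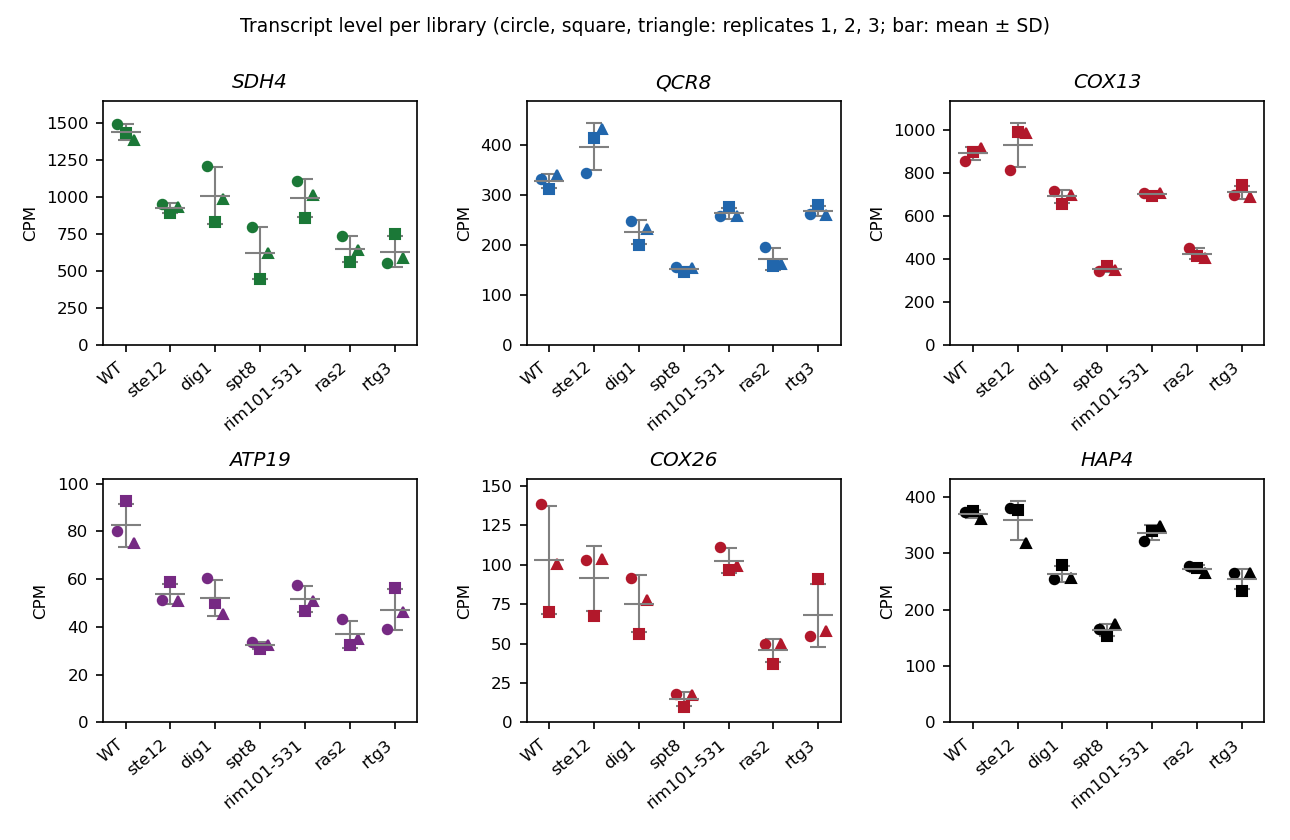
CPM (linear axes from 0) of SDH4, QCR8, COX13, ATP19 and COX26 and of the regulator HAP4 in every library by strain, with the mean ± SD over 3 libraries as grey bars. All spt8 libraries lie below all wild-type libraries in each panel, and QCR8 in ste12 reaches 431 CPM, above the wild type.

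In ras2, 31 of 37 genes were lower and 0 higher than in the wild type, against 14.9% of all tested genes lower and 10.3% higher. The median of the 37 genes was -0.71, beside -0.01 over all tested genes. All 8 genes of complex IV fell, with a median of -0.99, as did 15 of 16 of the ATP synthase (median -0.62), 6 of 9 of complex III (-0.69) and 2 of 4 of complex II (-0.60). The genes that did not pass were SDH1 and SDH2, the core proteins of complex III COR1 (-0.37) and QCR2 (-0.37), its Rieske iron-sulfur protein RIP1 (-0.36), and the inhibitor STF1 (-0.07 ± 0.29, adjusted p = 0.889).

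The 3 genes with the smallest p-values in ras2 were subunits of complex IV, and no test compared the complexes. COX13 stood at 452, 414 and 405 CPM in ras2, below 858, 899 and 917 in the wild type (-1.07 ± 0.07, adjusted p = 1.04e-07). COX6 stood at 364, 332 and 368 CPM against 723, 684 and 717 (-1.0, adjusted p = 1.41e-06). COX12 (YLR038C, chromosome XII, 224921 to 225172), a subunit on the intermembrane-space side, stood at 162, 133 and 135 CPM against 281, 284 and 285 (-0.98, adjusted p = 3.25e-06). In all 3 genes every ras2 library lay far below every wild-type library. The largest change was that of COX7 (YMR256C, chromosome XIII, 778945 to 779127), another small membrane subunit, with 20.7, 24.2 and 27.7 CPM in ras2 and 75.5, 58.2 and 57.9 in the wild type (-1.40, adjusted p = 4.16e-06). The small Fo subunits ATP18 and ATP19 stood at -1.20 and -1.17, and COX26 at -1.18.

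In rtg3, 22 of 37 genes were lower and 0 higher than in the wild type, against 11.2% of all tested genes lower and 9.32% higher, with a median of -0.48 beside 0.00 over all tested genes. Complex II had the lowest median (-0.79), followed by complex IV (-0.63), the ATP synthase (-0.50) and complex III (-0.32). Of the genes 2 of 4 fell in complex II, 7 of 8 in complex IV, 11 of 16 in the ATP synthase and 2 of 9 in complex III, namely QCR9 (-0.59) and QCR10 (-0.46). The count came to 13 without rtg3 replicate 1 and to 14 without wild-type replicate 3.

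SDH4 (YDR178W, chromosome IV, 817950 to 818495), which with SDH3 anchors complex II in the inner membrane, had the largest fall in rtg3. It stood at 1497, 1434 and 1389 CPM in the wild type and at 551, 750 and 588 in rtg3 (-1.19 ± 0.18, adjusted p = 9.57e-05). SDH3 (YKL141W, chromosome XI, 179667 to 180263) stood at 1266, 1198 and 1214 CPM against 551, 677 and 590 (-1.02). For both anchors all rtg3 libraries were far below the wild type, with replicate 2 the highest of them. COX9 (YDL067C, chromosome IV, 334217 to 334396), a small subunit of complex IV, stood at 26.1, 29.1 and 23.0 CPM in rtg3 and at 50.3, 51.7 and 48.2 in the wild type (-0.95, adjusted p = 3.77e-05). COX6 stood at 420, 481 and 448 CPM in rtg3 (-0.66, adjusted p = 0.000146). By contrast QCR6 (-0.09), QCR7 (-0.16) and STF1 (0.12) lay close to the wild type in rtg3 and did not pass.

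The hyperfilamentous dig1 mutant had 18 of 37 genes lower and 0 higher than the wild type, against 7.69% of all tested genes lower and 8.02% higher. The median was -0.45, beside -0.01 over all tested genes, and all 37 estimates were below 0. No gene of complex II passed, while 4 of 9 in complex III, 4 of 8 in complex IV and 10 of 16 in the ATP synthase fell, among them 4 of the 5 F1 genes. The count depended on single libraries: it came to 5 without dig1 replicate 2, 23 without dig1 replicate 1, and 11 without dig1 replicate 3, wild-type replicate 1 or wild-type replicate 2. It also came to 2 when only the dig1 and wild-type libraries were fitted. Alignment records that were not unique made up 27.3% to 28.6% of records in dig1 and 20.8% to 21.6% in the wild type, and their part in the result was not tested.

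COX6, QCR8 and ATP19 had the smallest p-values in dig1. COX6 stood at 532, 432 and 481 CPM in dig1 against 723, 684 and 717 in the wild type (-0.56 ± 0.10, adjusted p = 0.000744). QCR8 (YJL166W, chromosome X, 106434 to 106718), a small subunit of complex III next to cytochrome b, stood at 248, 200.2 and 231 CPM against 331, 312 and 339 (-0.53, adjusted p = 0.0014). ATP19 (YOL077W-A, chromosome XV, 185438 to 185644), a small subunit of Fo found in ATP synthase dimers, stood at 60.5, 50.2 and 45.6 CPM against 80.03, 92.7 and 75.0 (-0.66, adjusted p = 0.00221). In these 3 genes no dig1 library reached the wild type, and replicate 2 was the lowest dig1 library for COX6 and QCR8. The largest change was that of ATP20 (YPR020W, chromosome XVI, 599870 to 600217), another subunit of the dimer interface, with 94.3, 77.1 and 84.7 CPM in dig1 and 137, 141 and 134 in the wild type (-0.68 ± 0.17, adjusted p = 0.00823).

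In ste12, 7 of 37 genes were lower and 0 higher than in the wild type, against 5.2% of all tested genes lower and 4.77% higher, with a median of -0.31 beside -0.03 over all tested genes. The 7 were the complex II anchors SDH3 (-0.52) and SDH4 (-0.64), COX6 (-0.39), COX8 (-0.61), ATP15 (-0.75), ATP16 (-0.48) and ATP19 (-0.62). Complex II had the lowest median (-0.57), followed by complex IV (-0.33), the ATP synthase (-0.305) and complex III (-0.19). The count was 2 to 3 whichever 1 of the 6 ste12 and wild-type libraries was left out, and 8 when the libraries numbered 2 of every strain were left out together. ATP15 (YPL271W, chromosome XVI, 30079 to 30267), the epsilon subunit of F1, stood at 41.8, 51.4 and 53.3 CPM in ste12 and at 79.1, 84.5 and 82.7 in the wild type (-0.75 ± 0.15, adjusted p = 0.00294). ATP19 stood at 51.5, 58.7 and 51.0 CPM (adjusted p = 0.00772), and COX8 (YLR395C, chromosome XII, 909729 to 909965), a small subunit of complex IV, at 91.0, 82.0 and 95.6 against 148, 127 and 134 (adjusted p = 0.0197). These 3 genes did not overlap the wild type. No gene of complex III passed in ste12, and QCR8 stood at 343, 414 and 431 CPM there, above the highest wild-type library in all 3 cases (0.28, not passed).

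The rim101-531 mutant lay closest to the wild type, with 4 of 37 genes lower and 0 higher, against 1.8% of all tested genes lower and 1.28% higher. The median was -0.22, beside -0.01 over all tested genes. The 4 genes were COX7 (-0.67, adjusted p = 0.0204), COX9 (-0.52, adjusted p = 0.0369), COX13 (-0.34, adjusted p = 0.0407) and ATP19 (-0.68, adjusted p = 0.0104). ATP19 stood at 57.5, 46.6 and 51.1 CPM in rim101-531 and at 80.03, 92.7 and 75.0 in the wild type, COX7 at 34.8, 43.5 and 41.4 against 75.5, 58.2 and 57.9, and COX9 at 32.4, 30.7 and 41.8 against 50.3, 51.7 and 48.2. None of these overlapped the wild type. The count was 0 to 2 when any of the 6 libraries was left out, with 0 without rim101-531 replicate 2, and 1 when only the 2 groups were fitted.

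The share of each complex in the summed level is given as a description, without a test. Of the 24 shares of a complex in a mutant, 8 did not overlap the wild type. Complex IV made up 11.2% ± 0.208 of the summed CPM of the 37 genes in the wild type, 8.86% ± 0.665 in spt8 and 9.12% ± 0.529 in ras2 (mean ± SD, n = 3), and neither mutant overlapped the wild type. In the libraries the share was 11.3, 10.9 and 11.3% in the wild type, 8.30, 9.59 and 8.67% in spt8, and 8.59, 9.65 and 9.12% in ras2. Complex II made up 21.4% ± 1.78 in the wild type and 17.8% ± 1.055 in rtg3, the only mutant not overlapping the wild type, with 16.9, 18.9 and 17.5% in its libraries. In ste12 its share was nearly as low, at 18.5% ± 1.57, and overlapped the wild type through 1 library (20.3, 17.5 and 17.7%). Complex III made up 18.4% ± 0.639 in the wild type and a larger share, without overlap, in ste12 (20.9% ± 0.208), rim101-531 (20.6% ± 0.276), ras2 (19.4% ± 0.305) and rtg3 (21.4% ± 0.272). The ATP synthase share was 49.1% ± 2.62 in the wild type and lay below it without overlap only in dig1 (46.0% ± 0.566). With 3 against 3 libraries an exact permutation test cannot give a two-sided p below 0.10, so no p is given for these shares.

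A comparison that does not use the wild type set each mutant against the mean of the other 5 mutants. It was added after the results against the wild type were known, except for dig1, for which it is the comparison with the hypofilamentous mean described below. Of the 37 genes 32 were lower and 0 higher in spt8, against 15.7% of all tested genes lower and 15.3% higher, with a median of -0.57 beside 0.02 over all tested genes. In ras2 there were 9 lower and 0 higher, against 15.6% and 13.7% of all tested genes, which over both directions is not above the rate of all genes. In ste12 there were 0 lower and 16 higher, against 13.2% and 14.1%, and in rim101-531 0 lower and 15 higher, against 1.71% and 4.01%. Against the wild type, 0 genes were higher in either of these mutants. In this comparison the values of a gene add up to 0 over the mutants. Low values in spt8 and ras2 thus raise those of the other mutants, and the results are not separate evidence. In dig1 there were 0 lower and 7 higher, against 8.69% and 12.5%, which over both directions is near the rate of all genes. In rtg3 there were 3 lower and 4 higher, against 16.2% and 19% (938 and 1102 genes), so in that mutant the members were called no more often than other genes.

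The calls of this comparison are given here with their complexes, and no test compared the complexes with each other. In spt8 all 9 genes of complex III, 7 of 8 of complex IV and 14 of 16 of the ATP synthase were lower than in the other mutants, with COX26 at -2.29 ± 0.26 (adjusted p = 1.64e-06), QCR7 at -1.16 ± 0.10 and COX13 at -0.93. COX9 was the complex IV gene that did not pass (-0.10 ± 0.11). In rtg3 the lower genes were the complex II anchors SDH3 (-0.54) and SDH4 (-0.38) and COX9 (-0.37), and the higher ones were QCR6 (0.41), QCR7 (0.46) and QCR8 (0.23) of complex III and COX13 (0.28). In ste12 QCR8 stood 0.92 ± 0.08 above the mean of the other mutants (adjusted p = 3.81e-08) and COX13 0.75 ± 0.07 (adjusted p = 5.94e-08), while no complex II gene passed. In ras2 the lower genes included COX13 (-0.61 ± 0.07), COX7 (-0.61), ATP18 (-0.60) and QCR8 (-0.54).

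**Figure D4:**
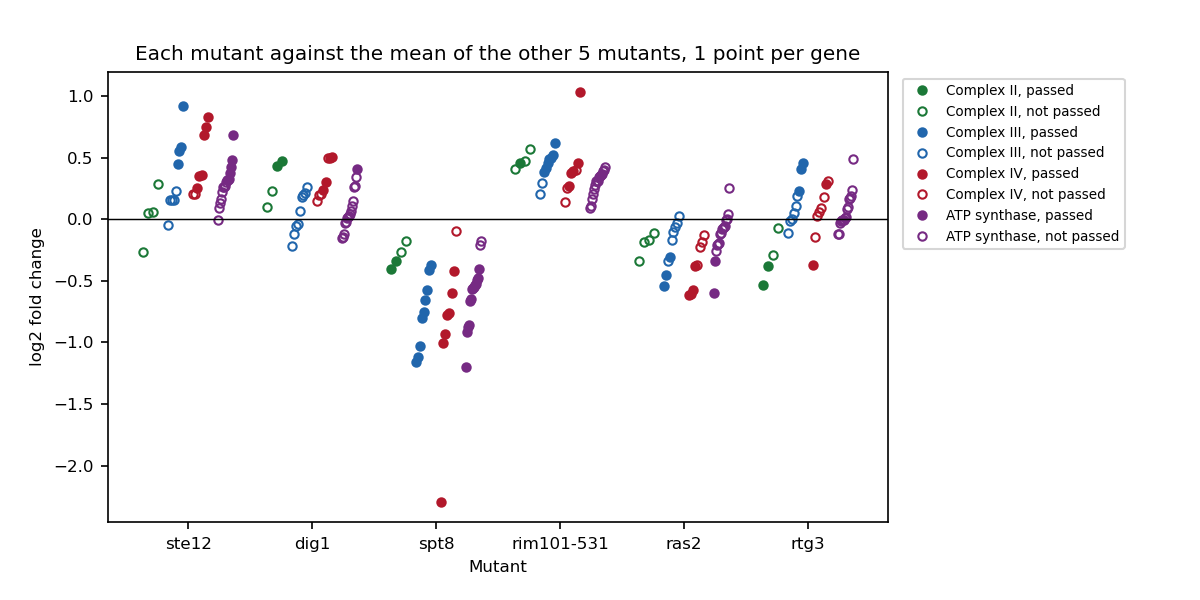
Log2 fold change of each of the 37 genes in each mutant against the mean of the other 5 mutants, coloured by complex, with filled points where the adjusted p is under 0.05. Most points lie below 0 in spt8, with COX26 at -2.29, and above 0 in ste12 and rim101-531. The values of each gene add up to 0 over the mutants, so the columns are not separate evidence.

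The series also set mutants of opposite filamentation phenotype side by side. In dig1 against ste12, 5 of 37 genes were lower and 0 higher, against 10.1% of all tested genes lower and 11.6% higher. Over both directions 13.5% of the 37 genes were called, against 21.7% of all tested genes, so they were called less often than other genes. The 5 lower genes were QCR8 (-0.81 ± 0.11, adjusted p = 1.12e-05), COX13 (-0.43 ± 0.09, adjusted p = 0.0015), QCR7 (-0.41, adjusted p = 0.019), ATP3 (-0.39), the gamma subunit of F1, and ATP4 (-0.39), a stalk subunit. QCR8 stood at 248, 200.2 and 231 CPM in dig1 and at 343, 414 and 431 in ste12. COX13 stood at 718, 657 and 699 CPM against 812, 992 and 984, and QCR7 at 495, 393 and 458 against 595, 578 and 614, without overlap in any of the 3 genes. Complex II leaned the other way, with all 4 estimates above 0 (0.04 to 0.41) and none passed. The lower genes were 2 without ste12 replicate 3, dig1 replicate 2 or dig1 replicate 3, 3 without ste12 replicate 2, and 1 when only the dig1 and ste12 libraries were fitted; 2 genes were higher without dig1 replicate 2.

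The comparison of dig1 with the equally weighted mean of the 5 hypofilamentous mutants is the dig1 contrast already counted above. In it, 0 of 37 genes were lower and 7 higher in dig1, against 8.69% of all tested genes lower and 12.5% higher. They were SDH3 (0.48), SDH4 (0.44), COX7 (0.51), COX8 (0.50), COX12 (0.30), COX13 (0.24) and ATP15 (0.41). Over both directions 18.9% of the 37 genes were called, against 21.2% of all tested genes, which is near the rate of all genes. The mean includes spt8 and ras2, whose summed levels were the lowest. COX13 was higher in dig1 than this mean but lower than in ste12, a mutant within it. COX7 stood at 41.8, 44.0 and 53.6 CPM in dig1 and at a lowest of 15.02, a median of 36.7 and a highest of 58.5 CPM over the 15 hypofilamentous libraries (adjusted p = 0.00466). COX8 stood at 111, 99.3 and 108 CPM against 33.6, 79.1 and 108 (adjusted p = 0.00467), and SDH3 at 1227, 941 and 1094 CPM against 535.6, 822 and 1333 (adjusted p = 0.00676). The groups overlapped in all 7 genes. The count was 2 without dig1 replicate 1, 3 without dig1 replicate 3 and 13 without dig1 replicate 2.

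Of the regulators listed with these genes, HAP4, the activating subunit of the CCAAT-binding Hap complex, fell in 4 mutants. It stood at 374, 376 and 362 CPM in the wild type and at 165, 153 and 175 in spt8 (-1.17 ± 0.09, adjusted p = 2.56e-08). It stood at 255, 280 and 257 CPM in dig1 (-0.49), at 277, 274.9 and 266 in ras2 (-0.44) and at 265, 234 and 265 in rtg3 (-0.54). The libraries of these 4 mutants all lay below the wild type, and those of spt8 also below every other library. HAP4 stood at 381, 377 and 319 CPM in ste12 (-0.05) and at 323, 339 and 349 in rim101-531 (-0.14) and passed in neither. HAP3, a DNA-binding subunit, fell in spt8 (-0.40), dig1 (-0.42) and ras2 (-0.43), and HAP1, a heme-responsive activator, rose in dig1 (0.51), ras2 (0.42) and rtg3 (0.26). HAP2 and HAP5 passed in none of the mutants against the wild type. The 5 genes with no CCAAT in their promoter window had a median of -1.07 in spt8, and the 32 with it a median of -1.13. COX26 is among the 32 through a match inside its coding sequence, and the split changes with the window. In the 500 bases before the start codon, CCAAT was in 34 of the 37 genes, against 62.4% of all such windows. These included all 16 genes of the ATP synthase, and so ATP1 and STF1. The part of CCAAT in the falls was not tested.

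Genes for cytochrome c and for enzymes that feed electrons into the chain changed mainly in ras2 and spt8. Of 8 such genes, 4 were lower and 0 higher in spt8, 6 lower and 1 higher in ras2, 2 lower in rtg3, 2 lower in dig1, 1 lower in ste12 and 0 in rim101-531. In either direction these were 87.5% of the 8 genes in ras2 and 50% in spt8, against 25.3% and 25.5% of all tested genes. They were 25% in rtg3 against 20.5%, 25% in dig1 against 15.7% and 12.5% in ste12 against 9.97%, which in ste12 and rtg3 is near the rate of all genes. CYC1, the main cytochrome c, fell in spt8 (-1.01 ± 0.14) and ras2 (-0.85), from 555 ± 38.9 CPM in the wild type to 276 ± 10.4 and 308 ± 14.7. Its hypoxic isoform CYC7 fell in spt8 (-2.22), ras2 (-0.78) and dig1 (-0.73). GUT2, the mitochondrial glycerol-3-phosphate dehydrogenase, fell in spt8 (-1.42), ras2 (-1.0) and rtg3 (-0.98), and DLD1, a D-lactate dehydrogenase, in ras2 (-0.90) and dig1 (-0.78). Among the NADH dehydrogenases, the internal NDI1 fell in spt8 (-0.92), and of the external pair NDE1 fell in ste12 (-0.28), ras2 (-0.28) and rtg3 (-0.36) while NDE2 rose in ras2 (0.96). CYB2, an L-lactate dehydrogenase, fell in ras2 (-1.07).

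Isoforms and paralogs of the subunits did not follow them throughout. COX5A, the aerobic isoform of a complex IV subunit, fell in ste12 (-0.32), dig1 (-0.31), spt8 (-0.91), ras2 (-0.65) and rtg3 (-0.35). Its hypoxic counterpart COX5B rose in rtg3, from 20.8 ± 2.28 to 57.1 ± 9.06 CPM (1.45 ± 0.27, adjusted p = 0.000771), and passed in no other mutant. The complex II paralogs SHH3, SHH4 and YJL045W all rose in ras2 (1.51, 0.62 and 0.92), where SDH3 and SDH4 fell. In spt8 they fell (-1.09, -2.13 and -0.63), and SHH4 also fell in ste12 (-0.98), dig1 (-0.82), rim101-531 (-0.83) and rtg3 (-1.59), SHH3 in rim101-531 (-0.75) and YJL045W in dig1 (-0.59). Reads of such paralogs can be shared. Alignment records that were not unique, 18.6% to 28.6% of records over the libraries, were given to no feature. The part of such reads in these values was not tested.

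The genes for assembly factors and for expression of the mitochondrially encoded subunits were called at rates near or below those of all tested genes, except in spt8. Of 49 such genes, 18 were lower and 0 higher in spt8, 11 and 2 in ras2, 4 and 1 in dig1, 4 and 1 in rtg3, 2 and 2 in ste12, and 1 and 0 in rim101-531. In either direction these were 36.7% of the 49 genes in spt8 against 25.5% of all tested genes, 26.5% against 25.3% in ras2, 10.2% against 15.7% in dig1, 10.2% against 20.5% in rtg3, 8.16% against 9.97% in ste12 and 2.04% against 3.08% in rim101-531. In spt8 the falls included 12 of 26 complex IV factors, among them the copper chaperones COX17 (-1.69) and COX11 (-1.03), PET117 (-1.31) and the supercomplex factors RCF1 (-0.99) and RCF2 (-0.93). COX17 also fell in ras2 (-1.25) and dig1 (-1.12), while RCF2 rose in dig1 (0.52). MZM1, a chaperone of the Rieske protein, fell in spt8 (-0.93), ras2 (-0.71), rim101-531 (-0.65) and dig1 (-0.54). SDH7, an assembly factor of complex II, fell in rtg3 (-0.82), ras2 (-0.74), spt8 (-0.73) and ste12 (-0.70). In the other direction, COX19, a complex IV assembly factor, rose in ste12 (0.88), AEP3, a factor for ATP synthase gene expression, rose in ste12 (0.51) and rtg3 (0.42), and PET111 and PET122, activators of translation of mitochondrial COX genes, rose in ras2 (0.45 and 0.71).

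Gene length moved with the fold changes in some mutants. Of the 37 genes 13 span at most 300 bases, and their median in spt8 was -1.28, beside -1.05 for the 24 longer ones. Over all tested genes of known span, the 145 that span at most 300 bases had a median of -0.33 in spt8 and the 5370 longer ones 0.03. In ras2 the medians were -0.93 and -0.66 for the respiratory genes and -0.34 and 0.01 for all genes, and in rtg3 -0.61 and -0.47 beside -0.29 and 0.01. In rim101-531 they were -0.32 and -0.22 beside -0.19 and -0.01, and 3 of the 4 genes that fell there were among the 13 short ones. The longer respiratory genes thus stood below 0 by more than long genes in general in these 4 mutants, and the part of length in the changes of the short ones was not tested. COX7, COX8, COX9, COX12 and COX26 of complex IV are among the short ones, and the part of length in the medians of the complexes was not tested.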

How the data were processed

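Per the labels' protocols, RNA came from hot acid phenol extraction and libraries from a TruSeq RNA kit. The deposited values were whole-number counts per feature, not normalized, in 1 table per library. The submitters' processing notes name bcl2fastq, TopHat2 2.0.19, HTSeq 0.6.1 and build R64, without roles or settings; the sources used here give neither strand setting nor annotation version. The 5 rows of alignments given to no feature, 40.1% to 47.8% of records, entered neither library sizes nor tests. Of the 7126 features 6048 matched the RefSeq R64 gene table, and no RefSeq gene overlapped a respiratory gene; overlaps with the 1078 others are not known. Replicates within each group differed beyond sampling noise (chi-square per degree of freedom 1.93 to 56.9).

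Groups came from the labels. The tool was edgeR 4.0.16 (R 4.3.3), with filterByExpr by group (5786 genes), TMM factors (0.893 to 1.16) and 1 quasi-likelihood fit of group means to all 21 libraries. Tests were two-sided, with Benjamini-Hochberg adjustment over all tested genes and a threshold of 0.05. The fit was also run on counts simulated with its own estimates of spread and without any shared shift of a replicate. That run cannot show how often the test errs where the genes of a library shift together, as they did here. CPM are counts scaled to effective library size, and RPKM divide them by coding length from the RefSeq annotation. Alternatives were DESeq2 1.42.0, its size factors, no filter, a block for the replicate number, only the groups compared, each library left out and, chosen after seeing the data, another reference group and all libraries numbered 2 left out. The members, gene lists and motifs were chosen with earlier results of these data known. Values per library are given for the 3 called members with the smallest p and the one with the largest change in each comparison, the member of each complex with the smallest p among strains, and HAP4. Of the genes of other lists, those that passed are named, and in the assembly lists examples of them.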

Additional observations from a re-analysis of the deposited data

How the results depend on the processing

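The counts of respiratory genes below the wild type in spt8 and ras2 and of those varying among strains stayed within 1.5 times under DESeq2, its size factors, no filter, the block, only the groups compared (for spt8 and ras2), without the libraries numbered 2 and with each library left out, at 34 to 37, 25 to 36 and 35 to 37. DESeq2, its size factors and no filter moved no count by over 1.5 times. When only the groups compared were fitted, the genes lower were 2 in dig1, 1 in rim101-531 and 1 in dig1 against ste12. Without the libraries numbered 2 they were 11, 0 and 3, with 3 higher in dig1 against ste12 and 15 higher in dig1 against the hypofilamentous mean. Against the mean of the other 5 mutants in place of the wild type, the lower and higher genes were 0 and 16 in ste12, 0 and 7 in dig1, 0 and 15 in rim101-531, 9 and 0 in ras2, and 3 and 4 in rtg3. With each library left out in turn, the lower genes ranged from 2 to 3 in ste12 (higher 0 to 1), 5 to 23 in dig1, 0 to 2 in rim101-531 and 13 to 23 in rtg3; in dig1 against ste12 the lower ranged from 2 to 6 and the higher from 0 to 2, and in dig1 against the hypofilamentous mean the lower from 0 to 1 and the higher from 2 to 13. Of 360 alternative values of the named genes, 326 kept their direction and call, 34 lost the call and 0 reversed. The labels do not say what a replicate number marks, and the numbers were not taken to pair the samples, since not every same-numbered pair correlated above 0.1. The median correlation was 0.37 for number 1 (-0.38 to 0.67), 0.37 for number 2 (-0.42 to 0.68) and -0.02 for number 3 (-0.06 to 0.07); 15, 15 and 0 of 21 pairs were above 0.1, and 6, 6 and 1 of 7 libraries correlated best with their own number, a hint from the data and not the design. With the number as a block the genes lower were 12 in ste12, 25 in dig1, 37 in spt8, 6 in rim101-531, 36 in ras2 and 28 in rtg3. The cause of these shifts was not tested. Depth limits the small genes most: COX9, ATP18 and STF1 stood near 50 CPM in the wild type.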
